A study of Mus musculus with 38 samples.

Results

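The cytoplasmic tRNA isoacceptors described here are those for aspartate, asparagine and glutamine in mouse sperm, namely tRNA-Asp-GTC, tRNA-Asn-GTT, tRNA-Gln-CTG and tRNA-Gln-TTG. An isoacceptor is named by its amino acid and anticodon. They are all the entries for these 3 amino acids, 4 of the 54 isoacceptors with at least 1 read, that the read tables list for cellular tRNA reads matching the genome. Mitochondrial tRNAs are given there only as a class total and were not analysed here.

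Small RNA was sequenced from sperm that swam out of the dissected epididymis of 38 male C57BL6/J mice from 21 litters. CTCT mice (n = 10) came from dams on a control diet with 20% protein and kept that diet after weaning on day 21, and CTPR mice (n = 9) came from such dams and ate a diet with 8% protein after weaning. PRCT mice (n = 9) came from dams on the 8% diet and ate the 20% diet after weaning, and PRPR mice (n = 10) had the 8% diet in both periods. All were killed at 11 to 13 weeks, and 17 litters gave mice to both post-weaning diets, while the dams' diets were compared between litters. Each mouse had 4465281 to 7612603 reads mapped to the genome. For mice 47I1 and 47I2 the sample labels, used here, give CTCT and CTPR, and the study's list of mice gives the reverse.

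A tRNA carries an amino acid to the ribosome and reads a codon with its anticodon. When a mature tRNA is cut near the anticodon it leaves a 5′ and a 3′ fragment, and sperm are known to be rich in such fragments, above all the 5′ fragments of tRNA-Gly and tRNA-Glu. The first anticodon base of tRNA-Asp and tRNA-Asn is the queuosine site, which tRNA-His and tRNA-Tyr share. tRNA-Asp is also the classical substrate of the methyltransferase Trdmt1 (Dnmt2), which acts in the anticodon loop and also on tRNA-Gly-GCC and tRNA-Val-AAC. The wobble uridine of tRNA-Gln-TTG is thiolated, as are those of tRNA-Glu-TTC and tRNA-Lys-TTT.

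RefSeq (GRCm38.p6) lists 16 tRNA-Asp-GTC genes, 13 tRNA-Asn-GTT genes, 10 tRNA-Gln-CTG genes and 6 tRNA-Gln-TTG genes, all of them separate tRNA genes of 72 to 74 bases. Of the tRNA-Asn-GTT genes, 6 lie on chromosome 3 between 96322074 and 96497854, and 5 tRNA-Asp-GTC genes lie on chromosome 1 between 171037029 and 171102442. On chromosome 13, all 3 tRNA-Asp-GTC genes and 3 tRNA-Gln-TTG genes lie within 21268469 to 23519684, and 4 tRNA-Gln-CTG genes span 21172351 to 21996652. The read tables sum the copies of an isoacceptor, so that no read was assigned to one gene. Stretches of 2 tRNA-Asn-GTT genes are shown because this tRNA had many reads listed at its 3′ end and almost none at its 5′ end. Most of its reads were listed at no end in all but 1 of 38 mice. The first runs from base 1 to base 47 of its gene, with the anticodon in capitals at bases 35 to 37. The second runs from base 41 to base 74, with the last encoded base in capitals. The CCA to which the amino acid is joined is added to that base after transcription and is not in the gene. Both agree at the 7 bases they share.
n-TNgtt6, chr1:171033969-171034015, minus strand: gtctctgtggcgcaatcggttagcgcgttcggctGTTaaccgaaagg
n-TNgtt7, chr10:80249199-80249232, plus strand: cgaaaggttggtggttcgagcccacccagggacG

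The 4 isoacceptors differed widely in level. tRNA-Asp-GTC was the most abundant, with a mean of 30.5 reads per 1000000 mapped reads per base of its gene, rank 8 of the 48 isoacceptors with an annotated length. tRNA-Gln-CTG followed at 16.5 (rank 10), tRNA-Asn-GTT at 2.31 (rank 17) and tRNA-Gln-TTG at 1.31 (rank 21), all on that scale. tRNA-Glu-CTC, the main tRNA of the amino acid closest to Gln, stood at 300.2 (rank 2). In the 38 mice, reads of the members ran from 3846 to 71788 for tRNA-Asp-GTC, 1741 to 21275 for tRNA-Gln-CTG, 277 to 3438 for tRNA-Asn-GTT and 176 to 1469 for tRNA-Gln-TTG.

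The order held in most mice but not in all. tRNA-Asp-GTC exceeded tRNA-Gln-CTG per base in 35 of 38 mice, by a mean of 0.95 ± 0.93 on the log2 scale (SD over 21 litters). tRNA-Gln-CTG exceeded tRNA-Asn-GTT in 38 of 38 mice, by 2.74 ± 0.71, and tRNA-Asn-GTT exceeded tRNA-Gln-TTG in 34 of 38, by 0.86 ± 0.52. Two-sided sign-flip permutation tests over litters, among 6 such tests of neighbours, gave p = 0.00024 for the first pair and p = 1e-05, the smallest that 100000 permutations can give, for the other 2. The neighbours follow the order seen in these same values, so the tests describe how steady that order was over litters and are not independent support for it. Within the tRNA-Gln pair, a median of 11.4 reads of tRNA-Gln-CTG were counted for each read of tRNA-Gln-TTG, with a range of 8.20 to 22.2 over the mice, and the group medians of that ratio were 11.3 in CTCT, 11.3 in CTPR, 11.7 in PRCT and 11.5 in PRPR. How reads that match both tRNA-Gln isoacceptors were assigned is not given in the sources used here.

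**Figure D1:**
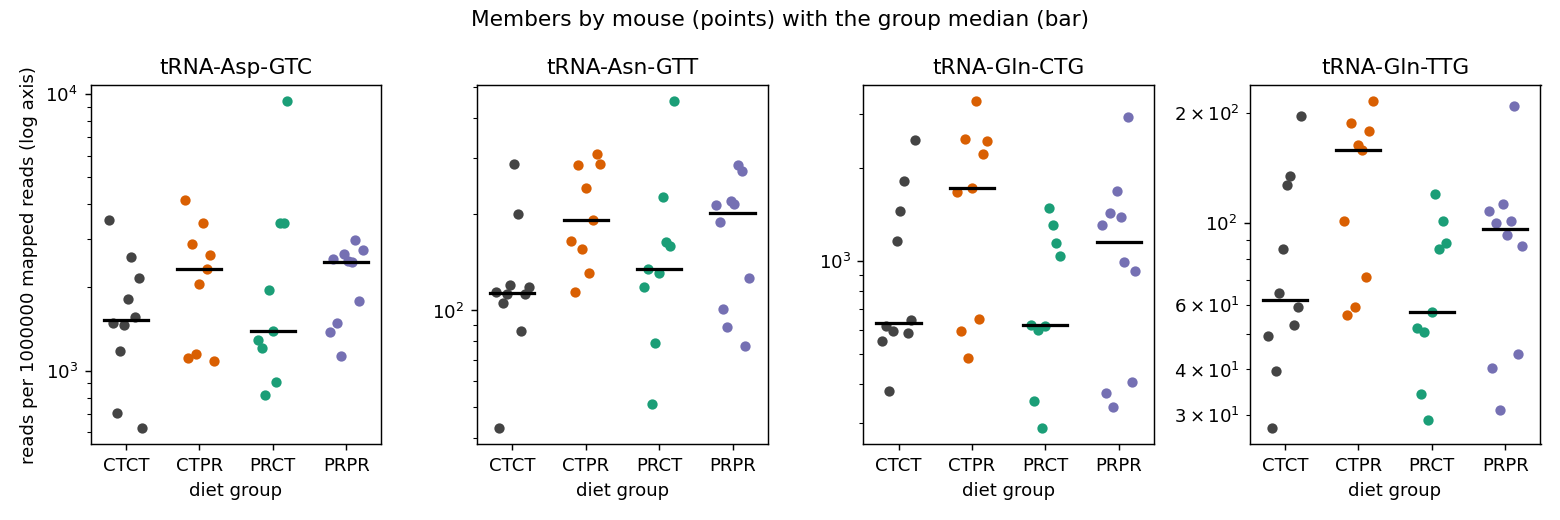
Reads per 1000000 mapped reads (log axis, a separate scale for each isoacceptor) of the 4 isoacceptors in each mouse (points) by diet group, with the group median as a bar. The groups overlap for every isoacceptor, and 1 PRCT mouse stands high for tRNA-Asp-GTC at 9430.

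The 4 isoacceptors differed from the 50 others summed in how many reads were listed at the ends of the tRNA for every 100 reads. Besides the total, the tables list reads at the 5′ end, at the 3′ end and at the CCA end of a tRNA. The largest of the 50 others were tRNA-Gly-GCC and tRNA-Glu-CTC, with means of 51.1% and 19.2% of all tRNA reads. Over the 50 other isoacceptors together, a median of 87.3 reads were listed at the 5′ end for every 100 reads, with a range of 80.4 to 93.9 over the mice. tRNA-Asp-GTC had 8.78 (1.91 to 18.4), tRNA-Gln-CTG 31.3 (14.9 to 54.3) and tRNA-Gln-TTG 19.2 (5.79 to 52.5). tRNA-Asn-GTT had a median of 0, with 1.04 as its highest value, and 20 of 38 mice had no tRNA-Asn-GTT read listed at the 5′ end.

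Each isoacceptor was set against all other tRNA reads of the same mouse. All 4 had fewer 5′-end reads per 100 in 38 of 38 mice, with a mean difference of -77.7 ± 3.43 for tRNA-Asp-GTC, -85.3 ± 1.97 for tRNA-Asn-GTT, -52.8 ± 7.39 for tRNA-Gln-CTG and -64.8 ± 9.44 for tRNA-Gln-TTG (SD over 21 litters). The differences were far larger than the spread between litters, and each sign-flip permutation test, among 8 tests for the 2 ends, gave p = 1e-05, the smallest 100000 permutations can give. The values also differed among the members: tRNA-Gln-CTG was above tRNA-Gln-TTG in 36 of 38 mice by 12.4 ± 5.58, tRNA-Gln-TTG above tRNA-Asp-GTC in 37 of 38 by 11.6 ± 8.76, and tRNA-Asp-GTC above tRNA-Asn-GTT in 38 of 38 by 8.93 ± 3.18 (sign-flip permutation p = 1e-05 each, 21 litters). These pairs too follow the order seen in the values tested.

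A low 5′-end value was not particular to these 4. Among the 26 isoacceptors with at least 100 reads in every mouse, the lowest median was that of tRNA-Asn-GTT, tied with tRNA-Arg-CCT, and tRNA-Asp-GTC ranked 7 from the lowest, tRNA-Gln-TTG 10 and tRNA-Gln-CTG 12. The value is a ratio of 2 lists and not a strict share, since the lists assign reads that fit several isoacceptors differently: tRNA-Gly-CCC had a median of 966.5 and tRNA-Val-AAC 288.4 end reads per 100, and tRNA-Gly-GCC, the most abundant isoacceptor, only 9.81. End reads exceeded the total in at least 1 mouse for 4 of the 26 and for the members in 0 of 152 values. The part of shared reads in a member's own value was not tested.

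At the 3′ end tRNA-Asn-GTT, the lowest of the 4 at the 5′ end, was the highest. It had a median of 30.4 reads per 100 listed there, with a range of 20.4 to 49.1, the highest of the 26 isoacceptors. tRNA-Asp-GTC had 4.52 (2.07 to 9.18, rank 3), tRNA-Gln-CTG 1.56 (0.101 to 6.85, rank 12) and tRNA-Gln-TTG 0 (0 to 1.52). The 50 other isoacceptors together had 0.191 (0.0794 to 0.304). Against all other tRNA reads of the same mouse, tRNA-Asn-GTT was higher in 38 of 38 mice by 31.7 ± 6.61 and tRNA-Asp-GTC in 38 of 38 by 4.33 ± 1.06, and tRNA-Gln-CTG in 37 of 38 by 1.55 ± 1.28 (sign-flip permutation p = 1e-05 each, 21 litters). For tRNA-Gln-TTG the difference did not pass (sign-flip permutation p = 0.258), with 10 mice higher and 28 lower. tRNA-Leu-CAA, at 19.0, was the isoacceptor nearest to tRNA-Asn-GTT in this measure.

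The list of CCA-end reads that match the genome changed the placing of tRNA-Gln-CTG. It had a median of 8.95 such reads per 100, with a range of 0.504 to 44.5, the second highest of the 26 isoacceptors, and more of them than 3′-end reads in 38 of 38 mice. tRNA-Asn-GTT had 4.23 (0 to 10.7), and no such read of tRNA-Asp-GTC or tRNA-Gln-TTG was listed in any mouse. With the 3′ and CCA lists added, tRNA-Asn-GTT stood at 35.9 (rank 2, after tRNA-Leu-CAA at 37.3), tRNA-Gln-CTG at 10.7 (rank 4), tRNA-Asp-GTC at 4.52 (rank 8) and tRNA-Gln-TTG at 0.

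**Figure D2:**
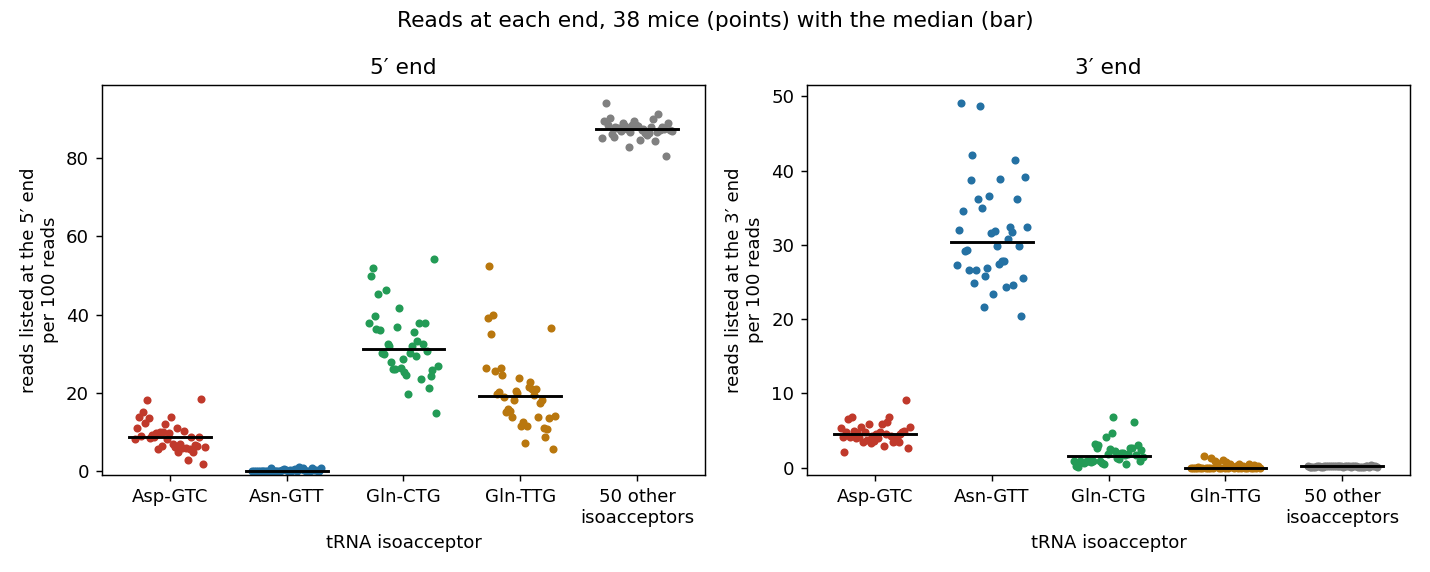
Reads listed at the 5′ end (left) and the 3′ end (right) of the tRNA per 100 reads of the isoacceptor in 38 mice (points), with the median as a bar, for the 4 isoacceptors and for the 50 others summed. The sum of the others lies between 80.4 and 93.9 at the 5′ end, above every value of the 4. Single isoacceptors within that sum had medians as low as the 4, such as tRNA-Arg-CCT at 0. tRNA-Asn-GTT lies highest at the 3′ end.

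The reads of a member that were left once all 3 end lists were taken from its total came to a median of 86.9 per 100 for tRNA-Asp-GTC (72.4 to 95.4), 63.5 for tRNA-Asn-GTT (45.6 to 74.3), 55.2 for tRNA-Gln-CTG (28.9 to 72.6) and 80.7 for tRNA-Gln-TTG (47.5 to 93.9). This remainder was below 50 per 100 in 11 of 38 mice for tRNA-Gln-CTG, in 1 mouse each for tRNA-Asn-GTT and tRNA-Gln-TTG and in 0 for tRNA-Asp-GTC, and like the end values it is not a strict share. Reads that carry the added CCA and so do not match the genome are listed apart. tRNA-Asp-GTC was the most abundant of the 45 isoacceptors with such a read and held 25.5% of them all. In tRNA-Asp-GTC these came to 268.4, 265.2, 269.2 and 338.3 reads per 1000000 mapped reads (medians of CTCT, CTPR, PRCT and PRPR), and all groups overlapped, with 101.8 as the lowest and 651.9 as the highest mouse. tRNA-Gln-CTG ranked 3 at 86.4 (5.11 to 283.6), tRNA-Gln-TTG 15 at 14.5 (4.56 to 25.7) and tRNA-Asn-GTT 20 at 8.80 (1.24 to 24.4), all as medians over mice on that scale. Set against reads that match the genome, the median was 14.9 CCA reads per 100 for tRNA-Asp-GTC, 16.4 for tRNA-Gln-TTG, 7.51 for tRNA-Gln-CTG and 6.00 for tRNA-Asn-GTT.

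The 5′-end values differed within the modification lists. Of the queuosine tRNAs, tRNA-Asp-GTC and tRNA-Asn-GTT had few reads at the 5′ end and tRNA-His-GTG had 67.4 per 100. The ends of tRNA-Tyr-GTA were not read, since it did not reach 100 reads in every mouse. Of the tRNAs with a thiolated wobble uridine, tRNA-Gln-TTG had 19.2 against 71.1 for tRNA-Lys-TTT and 78.2 for tRNA-Glu-TTC. Of the Trdmt1 substrates, tRNA-Asp-GTC had 8.78, tRNA-Gly-GCC 9.81 and tRNA-Val-AAC 288.4. None of the 3 is a strict share, since the lists assign reads that fit several isoacceptors differently. Whether tRNA-Asp-GTC and tRNA-Gly-GCC are alike in this was not tested. All values here are medians over 38 mice.

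The first diet comparison asked whether the 8% protein diet after weaning changed these fragments in offspring of control dams (CTPR against CTCT). Reads of tRNA-Asn-GTT, the queuosine tRNA for asparagine, ran from 42.9 to 288.0 per 1000000 mapped reads in CTCT (median 113.6) and from 114.2 to 307.9 in CTPR (median 192.5). In tRNA-Asp-GTC the values were 621.2 to 3510 in CTCT (median 1523) and 1088 to 4146 in CTPR (median 2337). tRNA-Gln-CTG ran from 379.9 to 2473 (median 631.2) and from 486.6 to 3296 (median 1724), and tRNA-Gln-TTG from 27.7 to 196.7 (median 62.0) and from 56.1 to 215.2 (median 159.0). CTPR medians were the higher ones, and the groups overlapped for all 4.

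In edgeR's quasi-likelihood fit of all 38 mice, none of the 4 passed an adjusted p of 0.05 (Benjamini-Hochberg over 54 isoacceptors), as none of the 54 did (0%). The log2 fold changes were 0.68 ± 0.33 for tRNA-Asn-GTT (SE, adjusted p = 0.145), 0.75 ± 0.40 for tRNA-Gln-CTG (adjusted p = 0.188), 0.66 ± 0.36 for tRNA-Gln-TTG (adjusted p = 0.189) and 0.44 ± 0.37 for tRNA-Asp-GTC (adjusted p = 0.307). The median over all 54 was 0.70, and 51 of the 54 lay above 0. tRNA-Asn-GTT and the tRNA-Gln pair were thus near the middle of a general difference, and tRNA-Asp-GTC was in its lower part. At an unadjusted p under 0.05, 1 of the 4 (tRNA-Asn-GTT, p = 0.0453) was higher in edgeR, against 33.3% of all isoacceptors, and DESeq2 with the same library sizes also counted 1 at that level and 0 after adjustment. With scaling that removes a change common to all tRNA reads, the median over the 54 fell to 0.15 (TMM) or to -0.0011 (DESeq2 size factors). tRNA-Asp-GTC then turned to -0.25 with TMM, and under DESeq2 size factors all 4 turned, to between -0.07 and -0.41. Without the CTCT mouse 45L3, which had the highest tRNA-Asn-GTT value of its group, tRNA-Asn-GTT passed in edgeR at 0.89 with an adjusted p of 0.0485. This was among 38 fits that each left out 1 mouse. Leaving out the highest control mouse raises the difference by construction, and the share of the 54 that passed in that fit is not given here.

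The medians of all 6 marker microRNA lists were higher in CTPR than in CTCT, with overlapping ranges, and were not tested. Germ cell microRNAs (12 entries, all detected) summed to 27.9 to 1079 reads per 1000000 in CTCT (median 416.6) and 136.2 to 1715 in CTPR (median 1019). Muscle microRNAs (6 entries, none at 0 throughout) summed to 63.5 to 3276 (median 1549) and 71.6 to 8575 (median 2606), and epithelial ones (5 entries) to 38.9 to 1294 (median 525.5) and 34.1 to 2227 (median 1044). Blood microRNAs (4 entries) had medians of 23.4 and 34.3, and brain ones (6 entries) 4.44 and 12.3. The liver microRNA stayed at 2.50 or below in both groups. The part of these cells in the result was not tested. In bulk RNA a different number of cells of a type and a different amount of RNA per cell cannot be told apart.

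As a share of all tRNA reads, the means of all 4 were lower in CTPR than in CTCT, within the spread between mice. tRNA-Asp-GTC took 1.87% ± 0.70 (SD, n = 10) in CTCT and 1.51% ± 0.57 (n = 9) in CTPR, a difference of -0.36 points by an exact two-sided permutation test (adjusted p = 0.904, p = 0.236). The shares of tRNA-Asn-GTT were 0.152% ± 0.0896 and 0.144% ± 0.0556, those of tRNA-Gln-CTG 1.22% ± 1.00 and 1.09% ± 0.51, and those of tRNA-Gln-TTG 0.0997% ± 0.0796 and 0.0877% ± 0.0379. None of the 4 differed by more than the spread between mice, and none of the 54 passed (0%). With tRNA-Gly-GCC left out of the denominator, 3 of the 4 turned higher in CTPR, by 0.043 points for tRNA-Asn-GTT, 0.30 for tRNA-Gln-CTG and 0.020 for tRNA-Gln-TTG. The CTCT mouse 57P3 had 3.87% tRNA-Gln-CTG, against 1.38% in the next mouse of its group, and without it the tRNA-Gln-CTG difference turned from -0.13 to 0.17 points.

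Littermates allowed the same question within a litter. In 8 litters with a CTCT and a CTPR mouse, tRNA-Asn-GTT was higher in the CTPR mouse in 7, by a mean of 0.49 ± 0.69 on the log2(reads per 1000000 + 1) scale (SD, exact sign-flip permutation p = 0.0938, adjusted p = 0.211). tRNA-Gln-TTG was higher in 7 of 8 by 0.48 ± 0.81 (exact sign-flip p = 0.133), tRNA-Asp-GTC in 6 by 0.37 ± 0.64 (exact p = 0.148) and tRNA-Gln-CTG in 5 by 0.52 ± 1.24 (exact p = 0.273). None passed, against 22.2% of all 54 that were higher at an unadjusted p under 0.05, and the smallest p that 8 pairs allow is 0.00781. Litter 45L was the one in which tRNA-Asn-GTT and tRNA-Gln-TTG were lower in the CTPR mouse, by -0.88 and -1.09. Leaving it out therefore left 7 of 7 litters higher, with means of 0.68 and 0.70 and the smallest exact p that 7 pairs allow (0.0156, adjusted p = 0.0496), a value that the choice of litter fixed.

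The share of tRNA-Asp-GTC moved the other way in the same litters. It was lower in the CTPR mouse in 7 of 8 litters, by a mean of 0.27 ± 0.28 points, with an unadjusted exact sign-flip p of 0.0391 and an adjusted p of 0.352. In litter 02A it was 3.04% in the CTCT mouse and 2.40% in the CTPR mouse, in litter 57P 0.973% and 0.836%, and only in litter 49K was it higher, at 1.61% and 1.83%. Of all 54, 11.1% were lower at that unadjusted level, and tRNA-Asp-GTC failed the correction. The difference depended on the group labels of the mice of litter 47I, which the study's list exchanges. With the exchange the mean difference was -0.13 ± 0.38 points, with the CTPR mouse lower in 6 of 8 litters (exact sign-flip p = 0.352, adjusted p = 0.759). Without litter 47I it was -0.23 points (exact sign-flip p = 0.0781). Leaving out any 1 of the 8 litters gave -0.21 to -0.34 points. The exact sign-flip p was 0.0625 to 0.0781 except without litter 49K, the only litter that was higher. Leaving 49K out therefore left 7 of 7 litters lower and the smallest exact p that 7 pairs allow (0.0156, adjusted p = 0.169). The choice of litter fixed that value.

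**Figure D3:**
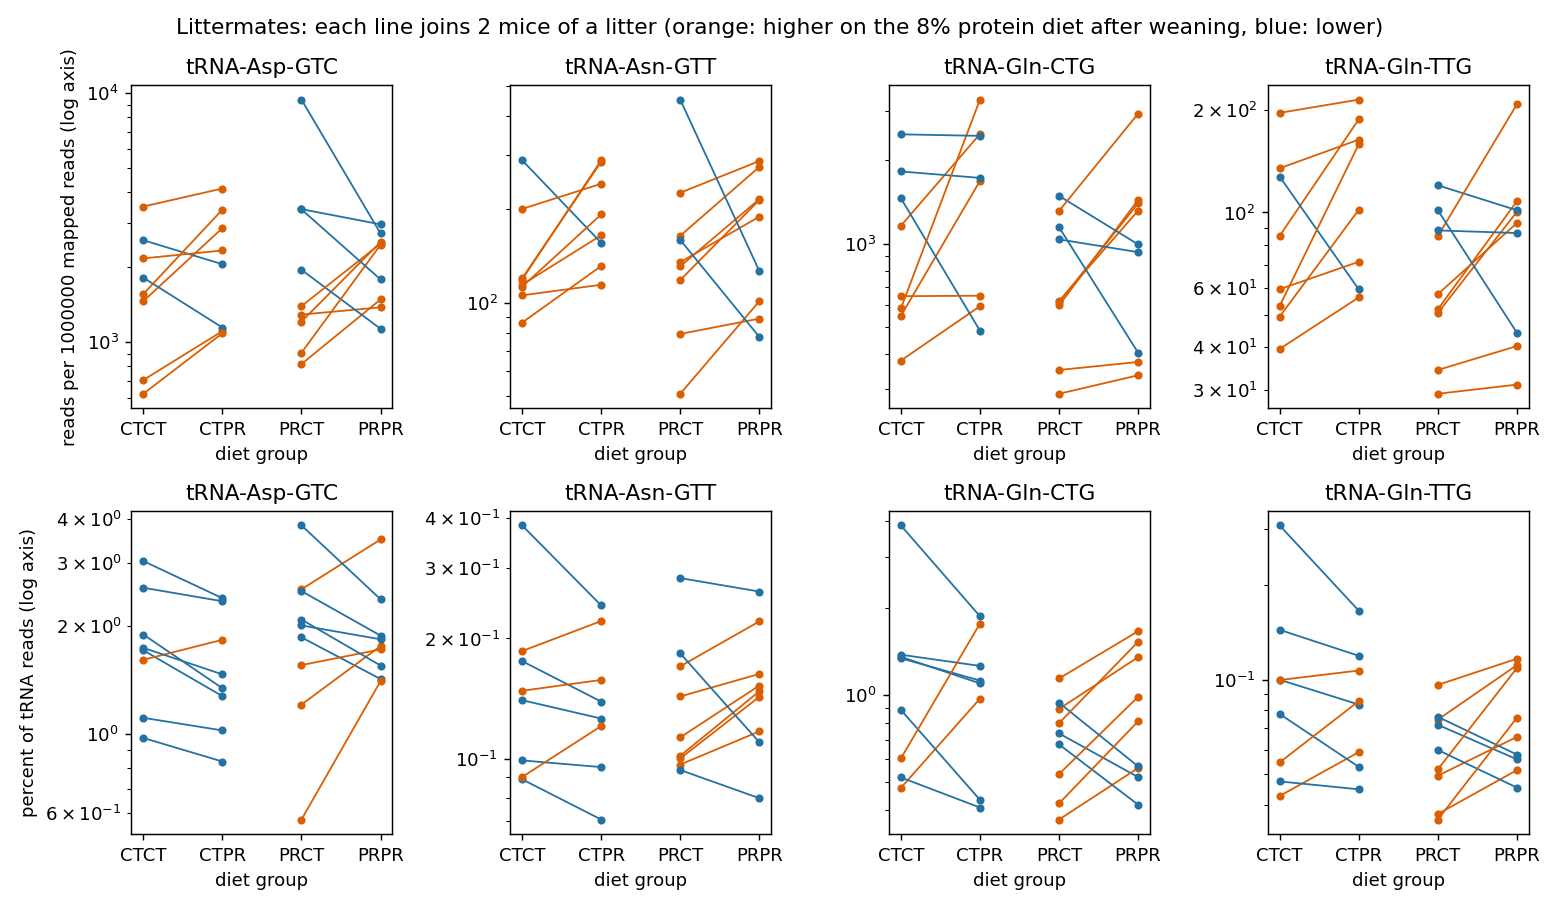
Littermates joined by lines, in reads per 1000000 mapped reads (top) and in percent of tRNA reads (bottom, both log axes), for CTCT and CTPR mice of control dams and PRCT and PRPR mice of dams on 8% protein. Orange lines rise and blue lines fall on the 8% diet after weaning. For tRNA-Asp-GTC of control dams, 6 of 8 lines rise in reads per 1000000 and 7 of 8 fall in share.

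The next comparison asked about the dam's diet alone (PRCT against CTCT). tRNA-Asp-GTC ran from 817.6 to 9430 per 1000000 in PRCT with a median of 1397, below the CTCT median of 1523, while its fitted log2 fold change was 0.63 ± 0.37 (edgeR, adjusted p = 0.976). The fitted value rested on mouse 59L1 at 9430, since the next mouse had 3425 and the fold change without 59L1 was 0.08. tRNA-Asn-GTT ran from 50.8 to 451.6 (median 135.1) with a fitted 0.37 ± 0.33, and without the same mouse 0.03. tRNA-Gln-CTG had a median of 621.8 (288.6 to 1486) and tRNA-Gln-TTG 57.4 (29.2 to 120.3), with log2 fold changes of -0.31 ± 0.41 and -0.29 ± 0.36 (edgeR, adjusted p = 0.993 for both). Of the 4, 0 passed at an adjusted p of 0.05 and 0 at an unadjusted one, against 1.85% of the 54 that were higher at the unadjusted level, and DESeq2 counted 0 of 4 at both. The median over the 54 was 0.

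In shares, both tRNA-Gln isoacceptors lay lower in PRCT than in CTCT without passing the test. tRNA-Gln-CTG took 0.724% ± 0.25 in PRCT, with 1 of 9 mice above the CTCT median (exact permutation p = 0.118, adjusted p = 0.532), and tRNA-Gln-TTG 0.0615% ± 0.0199, with 2 of 9 above it (exact p = 0.157, adjusted p = 0.532). Without mouse 57P3 of CTCT the tRNA-Gln-CTG difference shrank from -0.50 to -0.20 points and that of tRNA-Gln-TTG from -0.038 to -0.015. tRNA-Asp-GTC took 2.02% ± 0.92 and tRNA-Asn-GTT 0.143% ± 0.0623 in PRCT.

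Mice with the 8% diet in both periods (PRPR) were compared with each of the other groups, and these comparisons share their PRPR mice. tRNA-Asp-GTC ran from 1133 to 2976 per 1000000 in PRPR (median 2477), tRNA-Asn-GTT from 77.5 to 286.2 (median 201.8), tRNA-Gln-CTG from 336.4 to 2935 (median 1154) and tRNA-Gln-TTG from 31.1 to 208.4 (median 96.7). Against CTCT the log2 fold changes were 0.34 ± 0.36, 0.46 ± 0.32, 0.20 ± 0.39 and 0.15 ± 0.35 in that order (edgeR, adjusted p from 0.812 to 0.914), with 0.22 as the median of all 54. Against PRCT, the littermate group, they were -0.29 ± 0.37, 0.09 ± 0.33, 0.51 ± 0.41 and 0.43 ± 0.36 (adjusted p from 0.902 to 0.927), with a median of 0.19. Against CTPR they were -0.10 ± 0.37, -0.22 ± 0.33, -0.55 ± 0.40 and -0.52 ± 0.36 (adjusted p from 0.511 to 0.843), with a median of -0.42. No member passed in any of the 3, at an adjusted or an unadjusted p of 0.05, with edgeR or DESeq2. Of the 54, 0%, 0% and 7.41% (lower) passed the unadjusted level, and 1.85% the adjusted one against CTPR.

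tRNA-Asp-GTC and the tRNA-Gln pair thus had opposite signs between PRPR and PRCT, and single mice bore on both. Without 59L1 the tRNA-Asp-GTC value was 0.26 in place of -0.29. Without the PRPR mouse 46I3, which had 2935 of tRNA-Gln-CTG and 208.4 of tRNA-Gln-TTG, the values of the pair fell to 0.25 and 0.22. Among 9 litters with both groups, tRNA-Asn-GTT was higher in the PRPR mouse in 7, tRNA-Gln-CTG and tRNA-Gln-TTG in 6 and tRNA-Asp-GTC in 5, with mean log2 differences of 0.16 ± 0.95, 0.31 ± 0.95, 0.32 ± 0.77 and 0.06 ± 1.08. The exact sign-flip permutation p-values were 0.637, 0.352, 0.270 and 0.867, and 3.70% of the 54 were higher at an unadjusted p under 0.05.

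In shares, tRNA-Asp-GTC of all 10 PRPR mice lay above the CTPR median of 1.34%. That median is the value of mouse 47I2, which the study's list places in CTCT. With 47I1 (1.90%) in its place, the CTPR median is 1.47%, in mouse 53M4. The PRPR mice 40H3 (1.40%) and 08G5 (1.42%) then lie below it. The mean was 1.94% ± 0.62 in PRPR and 1.51% ± 0.57 in CTPR, a difference of 0.44 points that did not pass (exact permutation p = 0.127, adjusted p = 0.930). Without the PRPR mouse 14A5, which had the highest share of its group, it was 0.26 points (exact permutation p = 0.236), and 0% of the 54 were higher at an unadjusted p under 0.05. The groups overlapped, with PRPR from 1.40% to 3.499% and CTPR from 0.836% to 2.40%.

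**Figure D4:**
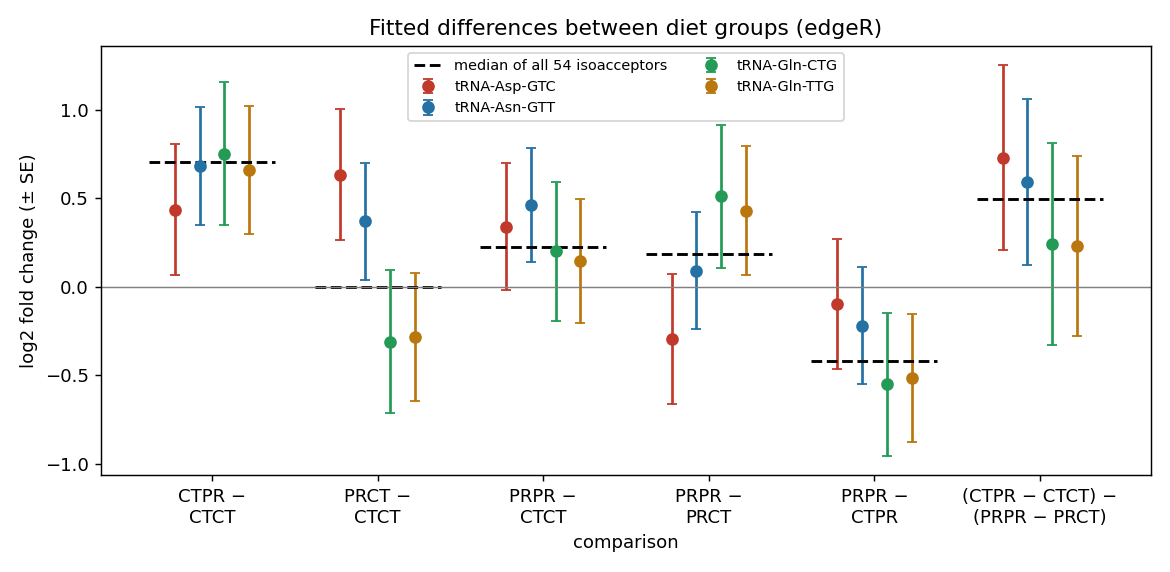
Fitted log2 fold changes (edgeR, points, with the SE as bars) of the 4 isoacceptors in each comparison, with the median of all 54 isoacceptors as a dashed line. For CTPR against CTCT, tRNA-Asn-GTT and the tRNA-Gln pair lie near the median of 0.70 and tRNA-Asp-GTC lies below it. None of the 4 passed an adjusted p of 0.05 in any comparison.

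Whether the effect of the 8% diet after weaning depended on the dam's diet was tested as the difference between the 2 post-weaning effects. The estimates were 0.73 ± 0.52 for tRNA-Asp-GTC, 0.59 ± 0.47 for tRNA-Asn-GTT, 0.24 ± 0.57 for tRNA-Gln-CTG and 0.23 ± 0.51 for tRNA-Gln-TTG on the log2 scale (edgeR, adjusted p = 0.552, 0.552, 0.918 and 0.918). The median over all 54 was 0.50. Without the PRCT mouse 59L1 the estimate was 0.17 for tRNA-Asp-GTC and 0.25 for tRNA-Asn-GTT. Under DESeq2 size factors all 4 turned negative, to between -0.04 and -0.26, and with TMM the tRNA-Gln pair did, at -0.14 and -0.12. Of the 4, 0 passed at an unadjusted p of 0.05 with edgeR or DESeq2, against 5.56% of the 54, and none of the 54 passed after adjustment.

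The reads at the 5′ end were also compared between the diet groups. tRNA-Gln-CTG had 37.7 ± 8.73 per 100 in CTCT, 29.9 ± 10.8 in CTPR, 30.6 ± 8.85 in PRCT and 32.0 ± 5.67 in PRPR. CTCT was the highest, without passing: the exact permutation p was 0.0998 against CTPR (adjusted p = 0.463) and 0.0969 against PRCT (adjusted p = 0.315), and the permutation p against PRPR was 0.105 (adjusted p = 0.451). tRNA-Asp-GTC had 10.6 ± 4.85, 7.90 ± 2.95, 8.04 ± 3.97 and 9.28 ± 2.65, and tRNA-Gln-TTG 23.3 ± 12.7, 16.9 ± 10.0, 19.1 ± 8.23 and 21.2 ± 7.83, in the same order of groups. For tRNA-Asn-GTT the group means lay between 0.117 and 0.293, on few reads. Of the 26 isoacceptors, 11.5% were lower in CTPR than in CTCT at an unadjusted p under 0.05, 11.5% in PRCT than in CTCT and 7.69% in PRPR than in CTCT, with 3.85% higher in CTPR, none of them members, and none passed after adjustment in any comparison.

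The lists of tRNAs that share a modification were read beside the members in the CTPR against CTCT comparison, where 33.3% of all 54 isoacceptors were higher at an unadjusted p under 0.05. Of the 4 queuosine tRNAs, 0 passed after adjustment and 2 were higher at an unadjusted p under 0.05, tRNA-Asn-GTT and tRNA-His-GTG, whose log2 fold change was 1.09 ± 0.36 (edgeR, adjusted p = 0.112). The median of the list was 0.71 against 0.70 for all 54. Of the 3 Trdmt1 substrates 1 was higher at the unadjusted level, tRNA-Gly-GCC at 0.94 ± 0.40 (adjusted p = 0.112), with a list median of 0.65. Of the 3 tRNAs with a thiolated wobble uridine 2 were, tRNA-Lys-TTT at 1.02 ± 0.39 and tRNA-Glu-TTC at 0.81 ± 0.32, with a list median of 0.81. In the other comparisons 0 to 1 member of a list reached the unadjusted level.

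Likeness across the mice was measured by Spearman's rho of the log2 share of tRNA reads, centred on the group means, over 38 mice and 25 other isoacceptors, with littermates among the mice and the shares of a library summing to a whole. tRNA-Gln-CTG and tRNA-Gln-TTG were most like each other (rho = 0.893), then tRNA-Leu-TAG (0.734 and 0.799). The part of reads that match both tRNA-Gln isoacceptors in their likeness was not tested. tRNA-Asp-GTC was most like tRNA-Glu-CTC (0.762), tRNA-Ser-GCT (0.579) and tRNA-Leu-AAG (0.338). tRNA-Asn-GTT was most like tRNA-Leu-CAA (0.864), tRNA-Lys-TTT (0.722) and tRNA-Met-CAT (0.709), and tRNA-Leu-CAA was also the isoacceptor with the second highest 3′-end value. tRNA-Gln-CTG had tRNA-Leu-AAG (0.546) in the next place, and tRNA-Gln-TTG had tRNA-Lys-CTT (0.654). Between tRNA-Asp-GTC and the others rho was -0.0966 for tRNA-Asn-GTT, -0.221 for tRNA-Gln-CTG and -0.330 for tRNA-Gln-TTG, and between tRNA-Asn-GTT and the tRNA-Gln pair 0.277 and 0.488. In log2 reads per 1000000, centred in the same way, all 6 pairs of members were positive, from 0.261 for tRNA-Asp-GTC with tRNA-Gln-TTG to 0.935 for the tRNA-Gln pair, and each member followed the sum of all tRNA reads at 0.622 to 0.741.

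Littermates resembled each other in these shares. Over 17 pairs in different diet groups after weaning, Pearson's r of the deviations from the group means was 0.784 for tRNA-Asn-GTT, 0.702 for tRNA-Asp-GTC, 0.674 for tRNA-Gln-TTG and 0.463 for tRNA-Gln-CTG in log2 share. In log2 reads per 1000000 it was 0.251, 0.488, 0.488 and 0.382. The 2 mice of a pair share a dam and diet before weaning and may share handling, which cannot be told apart here.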

How the data were processed

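Small RNA reads of 38 mice were mapped to mm10 and to small RNA databases by the authors with SPORTS 1.0 (per the methods), and the deposited files give raw read counts per class and class member. Database versions and the assignment of shared reads are not given in the sources used here. Reads were summed per isoacceptor and expressed per 1000000 genome-mapped reads (4465281 to 7612603 per mouse) or as a share of all isoacceptor reads. In mouse 31A3 the tRNA class total falls short of the isoacceptor sum, so sums were used. The test of counts was edgeR's quasi-likelihood test (version 4.0.16, R 4.3.3; all 54 isoacceptors, mapped reads as library size, Benjamini-Hochberg within a comparison), and DESeq2 1.42.0 was an alternative. For shares and end ratios, permutation tests (two-sided) enumerated every split if either group held under 10 mice and drew 100000 otherwise, and littermates were compared with exact sign-flip tests on log2(reads per 1000000 + 1), on shares in points and on 5′-end reads per 100, using pandas 2.3.3, scipy 1.17.1 and numpy 2.4.6 under Python 3.11.15. Tests were tried on simulated data. Ends were read for the 26 isoacceptors with at least 100 reads in every mouse. The 4 isoacceptors are those of these amino acids. They, the modification and marker lists and the 3 most alike isoacceptors were chosen with earlier results of these data known. Litters come from the mouse IDs, and over 17 pairs the deviations of littermates correlated at 0.251 to 0.488 in log2 reads per 1000000. Other scalings, tools, exchanged labels, left-out mice and litter as a replicate block were tried. Sequences and gene positions are from RefSeq GRCm38.p6, the assembly of mm10.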

Additional observations from a re-analysis of the deposited data

Results flagged for a closer look

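Within a diet group, 10 of 44 sets of values had a mouse far from the rest by Dixon's test, where chance gives about 1 in 20. In PRCT, mouse 59L1 had 9430.2 reads per 1000000 mapped reads of tRNA-Asp-GTC, with 3425.3 in the next mouse, and 451.62 of tRNA-Asn-GTT, with 226.14 in the next. In PRPR, mouse 46I3 had 2934.6 of tRNA-Gln-CTG and 208.42 of tRNA-Gln-TTG on the same scale, with 1692.1 and 113.19 in the next mouse.

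As percent of tRNA reads, the CTCT mouse 57P3 had 3.8744 of tRNA-Gln-CTG and 0.30821 of tRNA-Gln-TTG, with 1.3805 and 0.14379 in the next. The CTCT mouse 09H7 had 0.38362 of tRNA-Asn-GTT, with 0.18599 in the next, the PRCT mouse 14A4 had 0.28318 of tRNA-Asn-GTT, with 0.18355 in the next, and the PRPR mouse 14A5 had 3.4994 of tRNA-Asp-GTC, with 2.3795 in the next. The PRPR mouse 08G5 had 39.82 reads of tRNA-Gln-TTG at the 5′ end per 100, with 26.339 in the next. Without 09H7, the difference in tRNA-Asn-GTT share between CTPR and CTCT was 0.018 points in place of -0.0076, and without 14A5 that in tRNA-Asp-GTC share between PRPR and CTCT was -0.096 in place of 0.077. The cause of these values was not tested.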

How the results depend on the processing

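Of the values for single isoacceptors under settings other than leaving out 1 mouse or litter, 488 of 532 kept their direction and their side of the threshold, and 44 changed sign, none of them with an adjusted p under 0.05. Of those with 1 mouse or litter left out, 1332 of 1364 did so, 29 changed sign and 3 passed the threshold (tRNA-Asn-GTT without 45L3, tRNA-Asn-GTT and tRNA-Gln-TTG without litter 45L). The cause was not tested, apart from the scalings that by construction remove a change common to all tRNA reads.

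With TMM, log2 fold changes turned to -0.25 for tRNA-Asp-GTC in CTPR against CTCT, to -0.18 and -0.14 for tRNA-Gln-CTG and tRNA-Gln-TTG in PRPR against CTCT, to -0.025 for tRNA-Asn-GTT in PRPR against PRCT, to 0.26 and 0.13 for tRNA-Asp-GTC and tRNA-Asn-GTT in PRPR against CTPR, and to -0.14 and -0.12 for the tRNA-Gln pair in the difference of post-weaning effects. With DESeq2 size factors they turned to -0.41, -0.072, -0.073 and -0.11 (tRNA-Asp-GTC, tRNA-Asn-GTT, tRNA-Gln-CTG, tRNA-Gln-TTG) in CTPR against CTCT, to -0.20 and -0.17 for the tRNA-Gln pair in PRPR against CTCT, to -0.032 for tRNA-Asn-GTT in PRPR against PRCT, to 0.42 and 0.27 for tRNA-Asp-GTC and tRNA-Asn-GTT in PRPR against CTPR, and to -0.15, -0.040, -0.26 and -0.24 in the difference of effects. With 5′-end reads alone they turned to -0.15 and -0.79 for tRNA-Asp-GTC and tRNA-Asn-GTT in PRCT against CTCT, to -0.027 for tRNA-Gln-CTG in PRPR against CTCT, to 0.47 for tRNA-Asp-GTC in PRPR against PRCT, to 0.13 against CTPR, and to -0.28, -0.21, -0.37 and -0.60 in the difference of effects.

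The count of members at an unadjusted p under 0.05 in CTPR against CTCT, 1 in the report, was 0 with TMM, DESeq2 size factors, litter as a replicate block, the same litters without the block (chosen after seeing the data), 47I1 and 47I2 exchanged, 5′-end reads, all small RNA features and with 4 mice (08G5, 31A3, 35F2 and 07C3) left out, whose class totals were judged incomplete in an earlier analysis of these data, and 2 without litter 47I. Leaving out 1 mouse at a time gave 0 to 3 at the unadjusted and 0 to 1 at the adjusted level there, 0 to 1 unadjusted in PRCT against CTCT, PRPR against CTCT and PRPR against CTPR, and 0 to 1 for shares in PRPR against CTPR. Leaving out 1 litter gave 0 to 2 at both levels for CTPR and CTCT littermates. The cause of these changes was not tested. At the unadjusted level 33.3% of the 54 were higher in CTPR than in CTCT in the main fit, and 22.2% in the littermate test. The shares of the 54 in these other settings are not given here, so the counts do not set the members apart.

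Litter as a replicate block gave log2 fold changes of 0.37, 0.50, 0.52 and 0.49 in CTPR against CTCT (adjusted p from 0.159 to 0.313, edgeR) and turned tRNA-Asp-GTC to 0.079 in PRPR against PRCT. With the block, 1 member (tRNA-Asp-GTC) reached the unadjusted level for shares in CTPR against CTCT, and 0 with the block and 47I1 and 47I2 exchanged (chosen after seeing the data, as was leaving out each litter for shares), and no adjusted call changed. No paired analysis was possible across the dams' diets because those groups share no litters.

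For shares, leaving tRNA-Gly-GCC out of the denominator turned CTPR against CTCT to 0.043, 0.30 and 0.020 points for tRNA-Asn-GTT, tRNA-Gln-CTG and tRNA-Gln-TTG, and tRNA-Asn-GTT to 0.0050 in PRCT against CTCT and -0.031 in PRPR against CTPR. edgeR with isoacceptor reads as library size counted 2 members at the unadjusted level in PRCT against CTCT. The median log2 fold change over the 54 was -0.32 in that setting. The share of the 54 at that level there is not given here, so the count does not set the members apart. Log2 percentages gave 0.053 for tRNA-Asp-GTC in PRPR against PRCT. Without the 4 mice named above, tRNA-Asn-GTT turned to -0.034 in log2 fold change in PRPR against PRCT and to -0.013 points in PRPR against CTCT, tRNA-Asp-GTC to 0.044 points in PRPR against PRCT, and the 5′-end reads per 100 to -0.38 for tRNA-Gln-TTG (PRPR against PRCT) and 0.0058 for tRNA-Asn-GTT (PRPR against CTPR), the last 0.025 without litter 47I. The littermate difference of tRNA-Asp-GTC in PRPR against PRCT was -541.0 in reads per 1000000.

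Leaving out 1 mouse, log2 fold changes ran from -0.059 to 0.45 and -0.070 to 0.38 for the tRNA-Gln pair in PRPR against CTCT, from -0.19 to 0.055 for tRNA-Asp-GTC in PRPR against CTPR, and from -0.030 to 0.43 and -0.41 to 0.26 for tRNA-Asn-GTT and tRNA-Asp-GTC in PRPR against PRCT. Shares ran from -0.020 to 0.018, -0.23 to 0.17 and -0.022 to 0.011 points for tRNA-Asn-GTT, tRNA-Gln-CTG and tRNA-Gln-TTG in CTPR against CTCT, from -0.026 to 0.017 and -0.075 to 0.33 for tRNA-Asn-GTT and tRNA-Asp-GTC in PRCT against CTCT, from -0.0073 to 0.030, -0.096 to 0.21, -0.34 to 0.040 and -0.029 to 0.00078 for tRNA-Asn-GTT, tRNA-Asp-GTC, tRNA-Gln-CTG and tRNA-Gln-TTG in PRPR against CTCT, and from -0.26 to 0.15 for tRNA-Asp-GTC in PRPR against PRCT. Leaving out 1 litter, tRNA-Asp-GTC ran from -0.11 to 0.30 in PRPR and PRCT littermates.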
